A study of Bos taurus with 9 samples.

Results

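The circadian clock genes described here are CLOCK, PER1, PER2, PER3, CRY1, CRY2, DBP, TEF, HLF and CIART. They were taken by symbol from a table of 21512 genes, and all 10 were found. CRY2, whose symbol the table writes in mixed case, was matched through its NCBI Gene ID. All 10 also passed the filter on low counts, which left 14020 genes to be tested.

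In vertebrate cells the clock is a feedback loop of transcription. CLOCK pairs with BMAL1, the product of ARNTL, and the pair binds E-box sequences and switches on the period genes (PER) and the cryptochrome genes (CRY), whose proteins return to the nucleus and silence the pair. A second loop runs through the nuclear receptors REV-ERB and ROR, which set the level of ARNTL and other genes. The PAR bZIP factors DBP, TEF and HLF pass the rhythm on to genes with D-box sequences, and CIART (also called CHRONO) is a further repressor of the CLOCK and BMAL1 pair. Cultured fibroblasts carry such a clock, and in mouse and human cells serum, cAMP signals and glucocorticoids can reset it through PER1 and PER2.

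The study followed the conversion of bovine ear fibroblasts (BEFs) into chemically induced adipocytes (CiADCs) by RNA sequencing, with 3 samples each of BEFs on day 0, CiADCs-3d and CiADCs-6d. The labels name an rRNA removal kit and the study's methods oligo(dT) beads for these libraries, so whether RNA without a poly(A) tail was counted is not known. BEFs were primary wild-type cells grown out of ear margin tissue and kept in DMEM with serum. CiADCs had spent 3 or 6 days in N2B27 medium with RepSox (10 µM, an inhibitor of the TGF-beta type I receptor kinase), VPA (500 µg/mL, a histone deacetylase inhibitor) and TTNPB (1 µM, an agonist of the retinoic acid receptors). The age of the animals is not given in the sources used here, nor is it stated whether the samples of a group came from separate animals or inductions, so p-values measure the spread between these samples, which may be technical. No culture of day 3 or 6 went without the compounds, and so their effect, the change of medium and the time in culture cannot be told apart. The time of day of harvest is not given in the sources used here, nor whether the 3 samples of a group were harvested together. A change in the mean level of a clock gene and a change in the phase of its rhythm therefore cannot be told apart. In bulk RNA, fewer cells that express a gene and less RNA per cell cannot be told apart either.

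Total counts per sample lay between 18509244 and 24071580. Among the CiADCs, the samples numbered 1 stood farthest from the others of their day, with a chi-square per degree of freedom of 33.98 to 50.62 against them, while the samples numbered 2 and 3 differed by 13.51 to 15.14, so counts below are also given without those samples. All 8 proliferation markers fell on both days, and their summed FPKM was 268 to 313 in BEFs, 17.3 to 34.0 in CiADCs-3d and 11.2 to 13 in CiADCs-6d. Of 10 fibroblast markers, 2 rose (PDGFRA and PDGFRB) and 4 fell (VIM, COL1A1, COL1A2 and LUM) by day 3, and none rose and 7 fell by day 6. Their summed FPKM, most of it from a few matrix genes and VIM, was 20061 to 20650 in BEFs, 8678 to 11148 in CiADCs-3d and 5967 to 7999 in CiADCs-6d. Of 9 adipocyte markers tested, 4 rose and 2 fell by day 3 and 5 rose and 2 fell by day 6, and the summed FPKM of all 10 listed was 22.9 to 27.1, 18.7 to 34.5 and 15.5 to 16.6 in BEFs, CiADCs-3d and CiADCs-6d. LPL, PPARG, ADIPOQ and CD36 rose on both days and CEBPA by day 6, with mean FPKM in CiADCs-6d of 2.13, 3.46, 1.55, 2.76 and 1.98. FABP4 and CIDEC fell on both days, FABP4 averaging 17.2 FPKM in BEFs, 8.58 FPKM in CiADCs-3d and 1.40 FPKM in CiADCs-6d, and LEP was near 0 in every group. Of 5 leukocyte markers CD14, CD68 and CSF1R rose on both days while PTPRC was listed at 0 in every sample, and the sum was 0.86 to 1.12 in BEFs, 26.3 to 28.2 in CiADCs-3d and 39.5 to 49.8 in CiADCs-6d. The endothelial sum was 2.29 to 3.37 in BEFs, 36.6 to 52.1 in CiADCs-3d and 23.5 to 37.5 in CiADCs-6d, and in CiADCs nearly all of it was VWF, while CDH5 and CLDN5 were near 0 in every group. The sum of 5 cartilage markers was 47.9 to 49.0 in BEFs, 12.1 to 14.5 in CiADCs-3d and 9.53 to 12.5 in CiADCs-6d, with ACAN and SOX9 lower and COL2A1 and COMP higher on both days. The sum of 6 keratinocyte markers was 14.6 to 26.7 in BEFs, 10.2 to 16.4 in CiADCs-3d and 22.2 to 26.3 in CiADCs-6d. Of 5 tested, 2 rose (TP63 and KRT15) and 2 fell (KRT5 and KRT14) by day 3, and 3 rose and none fell by day 6. TP63 rose by 3.02 and 2.79 on the log2 scale, while KRT5, most of the sum, changed by -1.035 and 0.042. The part of these shifts in the clock gene results was not tested.

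The clock genes were expressed at low to moderate levels in every group, and most of them rose. By day 3, 6 of the 10 were higher in CiADCs than in BEFs (PER1, PER3, CRY2, DBP, TEF and HLF), PER2 was lower, and CLOCK, CRY1 and CIART did not pass the test. By day 6, 6 were higher (PER1, PER3, CRY1, CRY2, DBP and HLF), PER2 and CIART were lower, and CLOCK and TEF did not pass. A gene was called at an adjusted p under 0.05 in edgeR's quasi-likelihood test, with adjustment over all genes tested. By this call 30.9% of all genes tested were higher and 29.1% lower in CiADCs-3d than in BEFs, and for CiADCs-6d against BEFs the shares were 35.6% and 31.9%. Against that background, 6 of 10 is the larger share upward on both days, and 1 or 2 of 10 the smaller share downward. The median log2 fold change of the 10 genes was 0.66 by day 3 and 0.97 by day 6, beside 0.006 and 0.033 for all genes tested.

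With an added minimum of a 2-fold change, 4 clock genes were higher by day 3 (PER1, PER3, DBP and HLF) and 5 by day 6 (these and CRY2), and none was lower on either day. Of all genes tested, 18.2% were higher and 9.94% lower by this rule in CiADCs-3d, while in CiADCs-6d the shares were 21.9% upward and 13.4% downward. Between the days, 3 genes were higher in CiADCs-6d than in CiADCs-3d (PER1, PER2 and CRY1), TEF was lower and 6 did not pass, beside 14.4% of all genes higher and 13.6% lower. None of the 10 changed 2-fold between the days by edgeR's test, where 3 were higher and 1 was lower with no minimum fold. Of all genes, 4.09% were 2-fold higher and 3.22% 2-fold lower. The samples of CiADCs-3d lay wholly above those of BEFs for 6 clock genes and wholly below for 1, beside 35.1% and 35.4% of all genes. For CiADCs-6d against BEFs the numbers were 6 above and 2 below, beside 37.7% and 35.0% of all genes. Without the CiADCs samples numbered 1, the counts of clock genes higher and lower were 6 and 1 by day 3, 6 and 2 by day 6, and 5 and 1 between the days. That fit tested 14168 genes, of which 4771 were higher and 4485 lower by day 3 and 5312 and 5071 by day 6. Between the days it called 3224 genes higher and 3690 lower, a larger share than with all 9 samples.

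Levels are given as FPKM, reads scaled to transcript length and to library size, which can be set side by side between genes. In BEFs the order of mean levels was TEF, CRY2, CLOCK, CRY1, PER2, CIART, PER1, DBP, PER3 and HLF, and of these neighbours PER2 overlapped with CIART and CIART with PER1. In CiADCs-3d it was TEF, CRY2, PER1, CLOCK, DBP, CRY1, CIART, HLF, PER2 and PER3, and the samples of neighbours overlapped in every case except CRY2 with PER1 and CRY1 with CIART. In CiADCs-6d it was CRY2, TEF, CRY1, PER1, CLOCK, DBP, PER2, HLF, PER3 and CIART, and neighbours did not overlap for CRY2 with TEF, CLOCK with DBP, DBP with PER2 and HLF with PER3. TEF and CRY2 thus held the top 2 places throughout, while PER2 stood in place 5 in BEFs and 9 in CiADCs-3d, and HLF stood last in BEFs only.

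**Figure D1:**
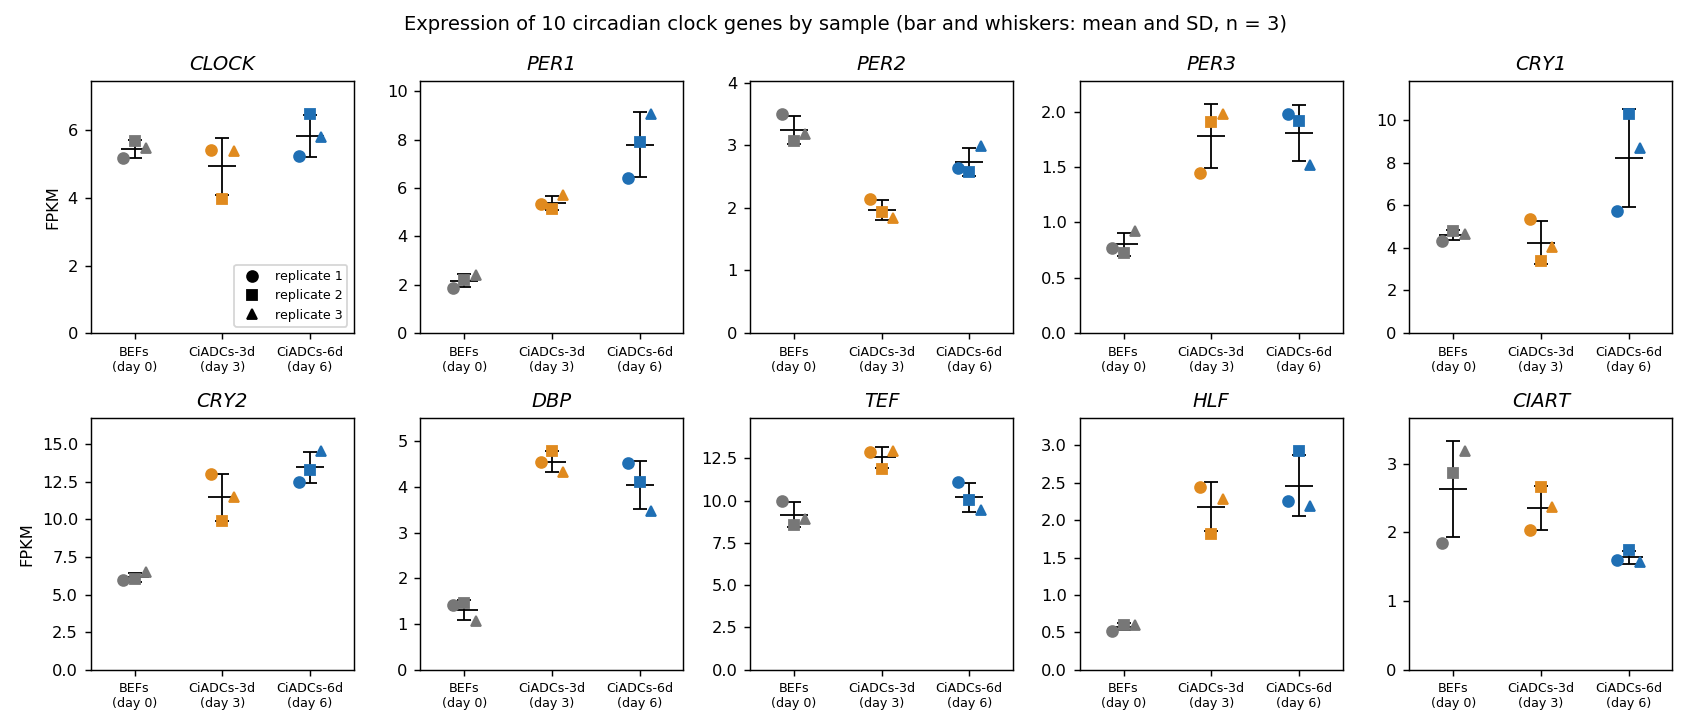
FPKM of each clock gene (y axis, FPKM, starting at 0 and scaled per gene) in the 3 samples of BEFs, CiADCs-3d and CiADCs-6d (points, with bars for group means and error bars for the SD). PER1, DBP and HLF lie higher in every CiADCs sample than in any BEFs sample, PER2 lies lower, and CLOCK overlaps between all groups.

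CLOCK, the DNA-binding partner of BMAL1, did not pass the test in any comparison. Its level was 5.18, 5.70 and 5.48 FPKM in BEFs, 5.43, 3.97 and 5.40 FPKM in CiADCs-3d and 5.23, 6.49 and 5.80 FPKM in CiADCs-6d. The groups overlapped, and the lowest value was that of a single CiADCs-3d sample. The log2 fold change was -0.13 in CiADCs-3d against BEFs (95% interval -0.43 to 0.17, adjusted p = 0.441) and 0.05 in CiADCs-6d against BEFs (-0.26 to 0.35, adjusted p = 0.785). Both intervals leave out a 2-fold change in either direction. Between the days it was 0.18 (-0.13 to 0.48, adjusted p = 0.365), and without the CiADCs samples numbered 1 it was 0.32 and passed (adjusted p = 0.0382).

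The period genes did not move together: PER1 and PER3 rose and PER2 fell. PER1, the period gene known from other mammals for its quick response to cAMP and glucocorticoids, had 1.87, 2.2 and 2.4 FPKM in BEFs, 5.32, 5.14 and 5.71 FPKM in CiADCs-3d and 6.40, 7.90 and 9.06 FPKM in CiADCs-6d. No sample of one group overlapped with those of another. The log2 fold change against BEFs was 1.31 by day 3 (SE 0.15, adjusted p = 1.12e-05) and 1.81 by day 6 (SE 0.15, adjusted p = 5.16e-07), a 2.48-fold and a 3.52-fold rise. PER1 also rose between the days, 1.42-fold (log2 fold change 0.50, SE 0.14, adjusted p = 0.0225). That last call ended when any CiADCs sample other than CiADCs-6d replicate 1 was left out, with adjusted p between 0.0514 and 0.14, the highest of these, with a log2 fold change of 0.32, without CiADCs-6d replicate 3.

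PER2, a repressor whose protein binds both CRY and BMAL1, went the other way. It had 3.50, 3.07 and 3.18 FPKM in BEFs, 2.14, 1.94 and 1.83 FPKM in CiADCs-3d and 2.63, 2.57 and 2.98 FPKM in CiADCs-6d. The CiADCs samples lay below all BEFs samples on both days, lowest on day 3. The log2 fold change against BEFs was -0.86 by day 3 (SE 0.13, adjusted p = 0.000116) and -0.42 by day 6 (SE 0.13, adjusted p = 0.0118), and between the days PER2 rose 1.36-fold (0.44, SE 0.13, adjusted p = 0.0271). The call by day 6 ended without BEFs replicate 1 (adjusted p = 0.0595) and with limma on log2 FPKM (adjusted p = 0.132 to 0.164), and the rise between the days ended without CiADCs-3d replicate 2 (adjusted p = 0.0931), CiADCs-3d replicate 3 (0.0959) or CiADCs-6d replicate 3 (0.144) and with only the 2 groups in the fit (0.0788). A lncRNA gene that is not in the table overlaps PER2 in the RefSeq annotation, and the strand setting of the counting is not given in the sources used here.

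PER3, which in mice is the least needed of the period genes for rhythm, was the lowest of the 3 on average in every group, and the table describes its protein as a low-quality prediction. It had 0.77, 0.72 and 0.92 FPKM in BEFs, 1.45, 1.91 and 1.98 FPKM in CiADCs-3d and 1.98, 1.92 and 1.52 FPKM in CiADCs-6d. All CiADCs samples lay above all BEFs samples, and the samples of the CiADCs days overlapped. PER3 was 2.19-fold higher than in BEFs on each day (log2 fold change 1.13, SE 0.19, adjusted p = 0.000254 by day 3 and 0.000196 by day 6), with a log2 difference between the days of 0.002 (95% interval -0.39 to 0.40, adjusted p = 0.996).

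The make-up of the period family shifted with these opposite directions. PER1 made up 30.5, 36.7 and 36.9% of the summed PER FPKM in BEFs, 59.7, 57.2 and 60.0% in CiADCs-3d and 58.1, 63.8 and 66.8% in CiADCs-6d. PER2 made up 57.0, 51.3 and 48.9% in BEFs, 24.0, 21.6 and 19.2% in CiADCs-3d and 23.9, 20.7 and 22.0% in CiADCs-6d. The leading period gene by level was therefore PER2 in every BEFs sample and PER1 in every CiADCs sample. PER3 held between 11.2 and 21.2% in all 9 samples. The sum of the 3 genes was 6.14, 5.99 and 6.5 FPKM in BEFs, 8.91, 8.99 and 9.52 FPKM in CiADCs-3d and 11.0, 12.4 and 13.6 FPKM in CiADCs-6d, with no overlap between groups.

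**Figure D2:**
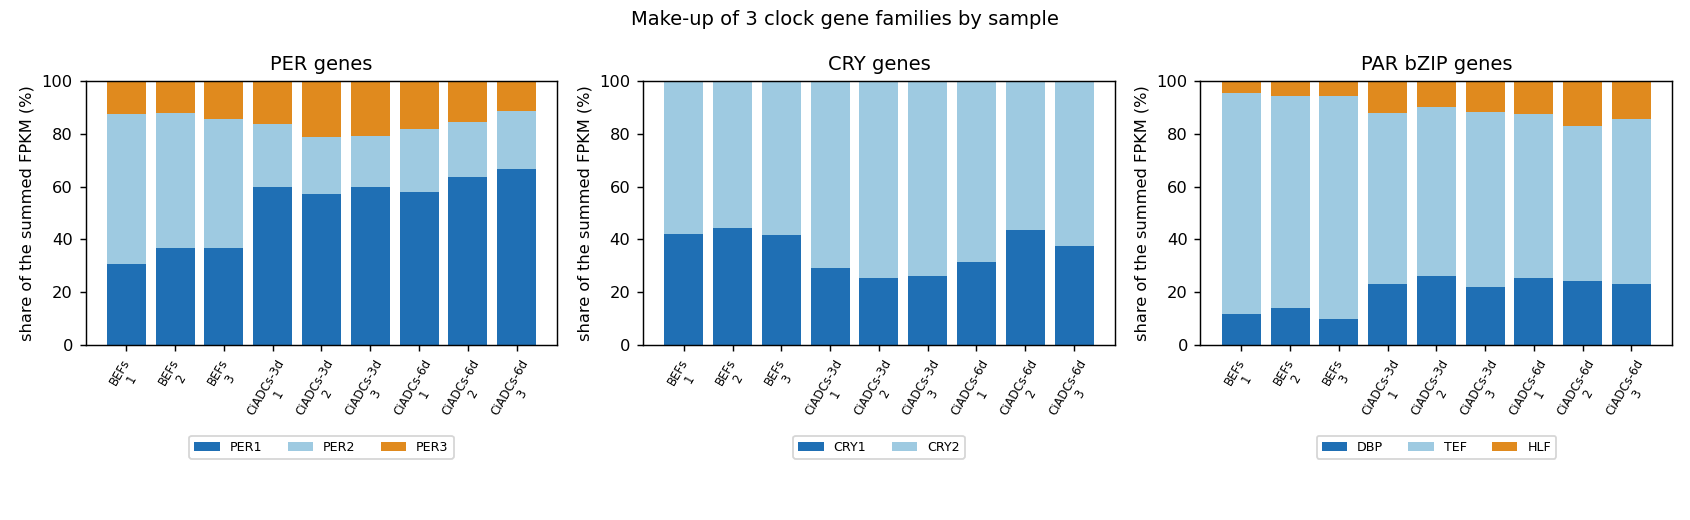
Share of the summed FPKM (y axis, %) held by each member of the PER, CRY and PAR bZIP families in each of the 9 samples (x axis, bars by sample in the order BEFs, CiADCs-3d, CiADCs-6d). PER1 holds 30.5 to 36.9% of the PER sum in BEFs and 57.2 to 66.8% in CiADCs, and TEF holds 80.5 to 84.3% of the PAR bZIP sum in BEFs and 58.8 to 66.2% in CiADCs.

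Both cryptochromes, the strongest repressors of the loop, were higher by day 6, CRY2 early and CRY1 late. CRY2 had 5.96, 6.02 and 6.49 FPKM in BEFs, 13, 9.91 and 11.5 FPKM in CiADCs-3d and 12.5, 13.3 and 14.6 FPKM in CiADCs-6d. Every CiADCs sample lay above every BEFs sample. The rise over BEFs was 1.83-fold by day 3 (log2 fold change 0.88, SE 0.12, adjusted p = 6.15e-05) and 2.13-fold by day 6 (1.09, SE 0.12, adjusted p = 7.14e-06). Between the days the samples overlapped (0.22, 95% interval -0.04 to 0.48, adjusted p = 0.191), although without the CiADCs samples numbered 1 the difference of 0.31 passed (adjusted p = 0.0414).

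CRY1 had 4.34, 4.81 and 4.67 FPKM in BEFs, 5.35, 3.38 and 4.03 FPKM in CiADCs-3d and 5.74, 10.3 and 8.68 FPKM in CiADCs-6d. The CiADCs-3d samples lay on both sides of BEFs, and all CiADCs-6d samples lay above every other sample, the one numbered 1 only narrowly. The log2 fold change against BEFs was -0.09 by day 3 (95% interval -0.56 to 0.37, adjusted p = 0.725) and 0.84 by day 6 (SE 0.21, adjusted p = 0.00349), which is a 1.79-fold rise. CRY1 was 1.91-fold higher in CiADCs-6d than in CiADCs-3d (0.93, SE 0.21, adjusted p = 0.00759), the largest difference between the days among the 10 genes, and without the CiADCs samples numbered 1 this was 1.27 (adjusted p = 4.95e-06). CRY1 held 42.1, 44.4 and 41.8% of the CRY sum in BEFs, 29.2, 25.4 and 26.0% in CiADCs-3d and 31.5, 43.6 and 37.3% in CiADCs-6d, so its share dipped on day 3 in every sample. The CRY sum was 10.3 to 11.2 FPKM in BEFs, 13.3 to 18.4 FPKM in CiADCs-3d and 18.3 to 23.6 FPKM in CiADCs-6d. RefSeq places a pseudogene, not in the table, over CRY1.

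CIART had 1.84, 2.86 and 3.19 FPKM in BEFs, 2.03, 2.66 and 2.37 FPKM in CiADCs-3d and 1.60, 1.74 and 1.57 FPKM in CiADCs-6d. The CiADCs-3d samples fell within the range of BEFs, and all CiADCs-6d samples were below both other groups. The log2 fold change against BEFs was -0.17 by day 3 (95% interval -0.69 to 0.35, adjusted p = 0.56) and -0.68 by day 6 (adjusted p = 0.0261), 0.623 of the BEFs level. Counts were low, 42 to 106 per sample, and the call by day 6 ended without BEFs replicate 2 or 3 (adjusted p = 0.071 and 0.118) or CiADCs-6d replicate 3 (0.0599). Between the days the difference was -0.51 (-1.05 to 0.03, adjusted p = 0.139) and did not pass, though the samples did not overlap.

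Of the PAR bZIP factors, the output arm of the clock, HLF and DBP rose on both days and TEF, the most abundant, by day 3, with no call by day 6. HLF had 0.52, 0.60 and 0.60 FPKM in BEFs, 2.44, 1.81 and 2.28 FPKM in CiADCs-3d and 2.26, 2.93 and 2.19 FPKM in CiADCs-6d. By mean FPKM it was the lowest of the 10 genes in BEFs, with 53 to 70 counts per sample, beside 42 to 61 for DBP. Its fold change was the largest of the 10, 3.85-fold by day 3 (log2 fold change 1.95, SE 0.20, adjusted p = 3.63e-06) and 4.21-fold by day 6 (2.08, SE 0.20, adjusted p = 1.57e-06). The days overlapped and differed by 0.13 (95% interval -0.26 to 0.52, adjusted p = 0.613). A lncRNA gene outside the table overlaps HLF in RefSeq.

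DBP, whose transcription the CLOCK and BMAL1 pair drives directly through E-boxes, followed HLF. It had 1.41, 1.47 and 1.06 FPKM in BEFs, 4.54, 4.80 and 4.33 FPKM in CiADCs-3d and 4.53, 4.12 and 3.48 FPKM in CiADCs-6d. All CiADCs samples were more than 3.4 FPKM and all BEFs samples were less than 1.5 FPKM. The rise over BEFs was 3.42-fold by day 3 (1.77, SE 0.19, adjusted p = 5.24e-06) and 3.00-fold by day 6 (1.59, SE 0.19, adjusted p = 1.09e-05), and the difference between the days was -0.19 (95% interval -0.56 to 0.19, adjusted p = 0.436).

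TEF, the most abundant of the 3, moved least. It had 9.99, 8.57 and 8.90 FPKM in BEFs, 12.84, 11.86 and 12.95 FPKM in CiADCs-3d and 11.1, 10.1 and 9.42 FPKM in CiADCs-6d. The CiADCs-3d samples lay above all others, and the CiADCs-6d samples overlapped with BEFs. TEF rose 1.35-fold by day 3 (0.43, SE 0.10, adjusted p = 0.00251), did not pass by day 6 (0.12, 95% interval -0.09 to 0.34, adjusted p = 0.293) and was lower in CiADCs-6d than in CiADCs-3d (-0.31, SE 0.10, adjusted p = 0.0366). This last call ended under limma on log2 FPKM (adjusted p = 0.0576 to 0.0628), total-count scaling (0.0501), a fit of the 2 groups alone (0.0796) and without any of 5 samples: BEFs replicate 3 (0.053), CiADCs-3d replicates 2 and 3 (0.058 and 0.109) and CiADCs-6d replicates 2 and 3 (0.0626 and 0.102).

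TEF held 80.5 to 84.3% of the summed PAR bZIP FPKM in BEFs, 64.2 to 66.2% in CiADCs-3d and 58.8 to 62.4% in CiADCs-6d. DBP held 10.0 to 13.8% in BEFs, 22.1 to 26.0% in CiADCs-3d and 23.1 to 25.3% in CiADCs-6d, and HLF held 4.4 to 5.7%, 9.8 to 12.3% and 12.6 to 17.1%. TEF remained the leading factor of the family in all 9 samples. The sum was 10.6 to 11.9 FPKM in BEFs, 18.47 to 19.82 FPKM in CiADCs-3d and 15.1 to 17.9 FPKM in CiADCs-6d.

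**Figure D3:**
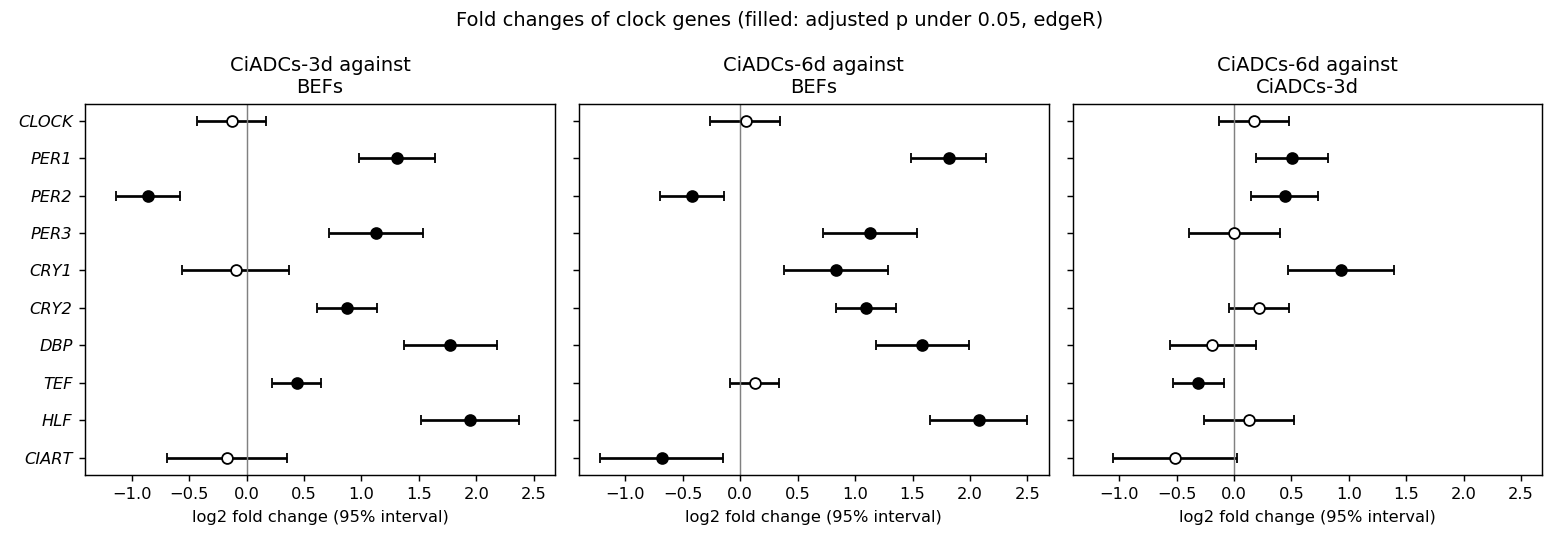
Log2 fold change of each clock gene (x axis) with its 95% interval for CiADCs-3d against BEFs, CiADCs-6d against BEFs and CiADCs-6d against CiADCs-3d, from the edgeR fit on all 9 samples, with filled points where the adjusted p was under 0.05. HLF, DBP and PER1 are the highest against BEFs (1.31 to 2.08), PER2 lies below 0 on both days, and the intervals of CLOCK cross 0 in all 3 comparisons.

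Across the 9 samples the 5 genes that rose on both days (PER1, PER3, CRY2, DBP and HLF) followed one another. Pearson's r of log2 CPM (counts scaled to library size) lay between 0.87 and 0.98 over their pairs, and was 0.98 for PER1 with CRY2, 0.96 for DBP with HLF and for CRY2 with HLF, 0.94 for PER1 with HLF, and 0.92 for PER3 with either DBP or HLF. PER2 ran against DBP (-0.87), TEF (-0.85) and PER1 (-0.65). CRY1 and TEF, each called higher against BEFs on a single day, had an r of -0.36 with each other and of 0.22 to 0.57 (CRY1) and 0.41 to 0.73 (TEF) with those 5 genes. The r of CLOCK was 0.72 with CRY1 and 0.04 with PER1. The 9 samples fall into 3 groups and share their libraries, so these values mostly restate the group means.

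Among genes with a mean of at least 10 CPM, the 3 whose pattern was most like that of PER1 over the 9 samples were RBM33, SLC9A8 and RTL8C (r = 0.9944, 0.9940 and 0.9935), and 1367 of 9179 genes had an r over 0.9 with it. For DBP they were MAB21L2, SDHAF2 and TTC19 (0.9954, 0.9949 and 0.9943), with 1128 of 9180 genes over 0.9. CRY1, with its late rise, was most like NDEL1, DOCK4 and KCMF1 (0.9914, 0.9885 and 0.9871), with 181 genes over 0.9. CLOCK was most like PHF5A, RPL24 and MOB4 (0.9620, 0.9503 and 0.9436), with 17 genes over 0.9. Many genes thus shared the patterns of PER1 and DBP in these samples. CLOCK was called in no comparison, so its r largely followed differences between single samples. Its 17 genes therefore do not show that an unchanged level was rare.

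The rest of the clock was followed in 6 lists of 38 other clock genes, of which 36 were tested. By day 3, 12 were higher and 11 lower than in BEFs (median log2 fold change 0.12), by day 6, 18 were higher and 8 lower (0.31), and between the days 10 were higher and 2 lower (0.20), or 16 and 6 without the CiADCs samples numbered 1. By day 3 the shares, 12 and 11 of 36, were close to the background of all genes tested (30.9% higher and 29.1% lower). With all 9 samples that background was 35.6% higher and 31.9% lower by day 6, and 14.4% and 13.6% between the days. Without the CiADCs samples numbered 1, 3224 of 14168 genes tested were higher and 3690 lower between the days. The KEGG circadian rhythm pathway, as the table annotates it, was counted without those of the 10 genes already described. Of 21 tested, 10 were higher and 2 lower by day 3 and 9 higher and 2 lower by day 6, beside the same background. Of this pathway the genes with the smallest p by day 6 were BHLHE41, PER1, PRKAG2 and NR1D1, and PRKAG2, which encodes a subunit of the energy sensor AMPK, averaged 18.4 FPKM in BEFs, 35.8 FPKM in CiADCs-3d and 34.4 FPKM in CiADCs-6d, with log2 fold changes of 1.02 and 0.95 (adjusted p = 2.9e-06 and 3.9e-06).

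The other E-box activators differed from each other. ARNTL, which encodes BMAL1, had 3.74, 3.73 and 4.14 FPKM in BEFs, 5.03, 3.98 and 4.35 FPKM in CiADCs-3d and 4.30, 3.08 and 3.79 FPKM in CiADCs-6d, and like CLOCK it passed in no comparison (log2 fold change 0.13 and -0.14 against BEFs, adjusted p = 0.452 and 0.414). Its paralog ARNTL2 had 5, 9 and 3 counts in BEFs (0.08, 0.13 and 0.05 FPKM), against which it had 4.28, 4.18 and 3.89 FPKM in CiADCs-3d and 3.61, 5.34 and 3.27 FPKM in CiADCs-6d. ARNTL2 thus was close to the level of ARNTL in CiADCs and close to 0 in BEFs, with log2 fold changes of 5.53 and 5.50 (adjusted p = 1.76e-08 and 1.47e-08), although the few BEFs counts limit the precision of that fold. NPAS2, a stand-in for CLOCK, had 1.25, 0.99 and 1.27 FPKM in BEFs, 0.68, 0.69 and 0.60 FPKM in CiADCs-3d and 0.56, 0.21 and 0.13 FPKM in CiADCs-6d, and fell by 1.98 on the log2 scale by day 6 (adjusted p = 0.000725) but did not pass by day 3 (-0.85, adjusted p = 0.06).

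All 3 of the tested nuclear receptors of the second loop rose on both days, beside 30.9% and 35.6% of all genes tested. NR1D1 (REV-ERB alpha), a repressor of ARNTL, had 4.12, 3.93 and 4.15 FPKM in BEFs, 9.82, 7.16 and 9.18 FPKM in CiADCs-3d and 9.63, 13.1 and 14.4 FPKM in CiADCs-6d (log2 fold change 1.08 and 1.57, adjusted p = 0.000131 and 4.29e-06). NR1D2 (REV-ERB beta) had 6.83, 7.48 and 7.61 FPKM in BEFs, 12.44, 12.03 and 11.82 FPKM in CiADCs-3d and 16.1, 23.1 and 22.1 FPKM in CiADCs-6d (0.68 and 1.40, adjusted p = 0.000793 and 1.6e-06). Neither had a CiADCs sample as low as BEFs. The opposing activator RORA averaged 0.81 FPKM in BEFs, 1.65 FPKM in CiADCs-3d and 1.77 FPKM in CiADCs-6d (0.88 and 1.07, adjusted p = 0.00217 and 0.000431).

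Of 5 other transcriptional repressors, 3 rose and 1 fell by day 3, and 4 rose and 1 fell by day 6. The shares of all genes tested were 30.9% up and 29.1% down by day 3, and 35.6% and 31.9% by day 6. BHLHE41 (DEC2), which competes for E-boxes, had 1.31, 1.18 and 1.62 FPKM in BEFs, 5.34, 4.99 and 4.53 FPKM in CiADCs-3d and 8, 10.8 and 11.6 FPKM in CiADCs-6d (log2 fold change 2.0 and 2.88, adjusted p = 2.53e-06 and 7.8e-08). Its paralog BHLHE40 (DEC1) averaged 69.9 FPKM in BEFs, 94.6 FPKM in CiADCs-3d and 131 FPKM in CiADCs-6d (0.42 and 0.87, adjusted p = 0.0475 and 0.000578). NFIL3 (E4BP4), which binds D-boxes in opposition to DBP, TEF and HLF, had 13.6, 13.6 and 15.2 FPKM in BEFs, 42.7, 27.2 and 25.8 FPKM in CiADCs-3d and 58.6, 62.3 and 49.9 FPKM in CiADCs-6d (1.16 and 1.96, adjusted p = 6.7e-05 and 6.09e-07). The D-box repressor was therefore higher on both days, as were the activators DBP and HLF but not TEF, which passed by day 3 and not by day 6. NFIL3 exceeded the summed PAR bZIP FPKM in all 9 samples. TIMELESS, known in mammals also for its part in DNA replication, averaged 10.3 FPKM in BEFs, 3.87 FPKM in CiADCs-3d and 2.49 FPKM in CiADCs-6d (-1.43 and -2.08, adjusted p = 5.35e-06 and 2.1e-07), and it fell beside the 8 proliferation markers.

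Of 9 genes for the kinases and the turnover of PER and CRY proteins, 2 were higher and 2 lower by day 3, and 4 higher and 1 lower by day 6. By day 3, 30.9% of all genes tested were higher and 29.1% lower, and by day 6, 35.6% and 31.9%. The deubiquitinase USP7 fell (log2 fold change -0.42 and -0.52, adjusted p = 0.00136 and 0.000221), and USP2 was called higher by day 6 alone. It averaged 1.20 FPKM in BEFs, 1.40 FPKM in CiADCs-3d and 3.55 FPKM in CiADCs-6d (0.11 and 1.45, adjusted p = 0.773 and 0.00063). CSNK1D, a kinase that phosphorylates PER proteins, rose by 0.30 and 0.36 on the log2 scale (adjusted p = 0.00889 and 0.00257).

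Of 9 clock cofactors, 1 rose and 7 fell by day 3, and 1 rose and 4 fell by day 6. Among all genes tested, 30.9% rose and 29.1% fell by day 3, and 35.6% and 31.9% by day 6. NCOR1, the corepressor used by REV-ERB, was the one that rose on both days and averaged 19.5 FPKM in BEFs, 29.0 FPKM in CiADCs-3d and 30.7 FPKM in CiADCs-6d (log2 fold change 0.56 and 0.62, adjusted p = 0.000162 and 5.45e-05). NONO, an RNA-binding protein found with PER complexes, averaged 183 FPKM in BEFs, 138 FPKM in CiADCs-3d and 95.7 FPKM in CiADCs-6d (-0.42 and -0.97, adjusted p = 0.00127 and 1.2e-06). WDR5, a subunit of histone methyltransferases, fell on both days (-0.43 and -0.61, adjusted p = 0.00808 and 0.00066), while DDB1, a subunit of ubiquitin ligases, was called lower by day 6 alone (-0.40, adjusted p = 0.00281, against -0.18 and 0.117 by day 3). SIRT1, a deacetylase that acts on the clock, was picked out after its values were seen: it averaged 4.24 FPKM in BEFs, 2.02 FPKM in CiADCs-3d and 5.08 FPKM in CiADCs-6d, lower by day 3 (-1.09, adjusted p = 0.00017) and higher again between the days (1.27, adjusted p = 0.000528).

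Of 7 further output genes, 2 rose and 1 fell by day 3, and 5 rose and 1 fell by day 6. For all genes tested the shares were 30.9% up and 29.1% down by day 3, and 35.6% and 31.9% by day 6. PPARA, a lipid-sensing nuclear receptor under clock control in mouse liver, averaged 4.23 FPKM in BEFs, 4.66 FPKM in CiADCs-3d and 7.65 FPKM in CiADCs-6d (log2 fold change by day 6 1.02, adjusted p = 5.7e-06). NOCT (nocturnin) had 2.99, 2.71 and 6.49 FPKM in BEFs, 7.43, 4.22 and 6.48 FPKM in CiADCs-3d and 15.01, 13 and 13.4 FPKM in CiADCs-6d, overlapping with BEFs on day 3 and not on day 6 (1.73 by day 6, adjusted p = 0.000233). ALAS1, the first enzyme of heme synthesis, rose by 0.54 and 0.76 (adjusted p = 0.00157 and 8.48e-05). TSC22D3 (GILZ), which is also a glucocorticoid target, averaged 15.2 FPKM in BEFs, 24.5 FPKM in CiADCs-3d and 51.5 FPKM in CiADCs-6d (0.66 and 1.72, adjusted p = 0.0477 and 0.000119). Its CiADCs-3d samples were uneven, at 36.19, 15.71 and 21.69 FPKM, and the one numbered 2 was close to BEFs (14.79 to 15.66 FPKM).

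**Figure D4:**
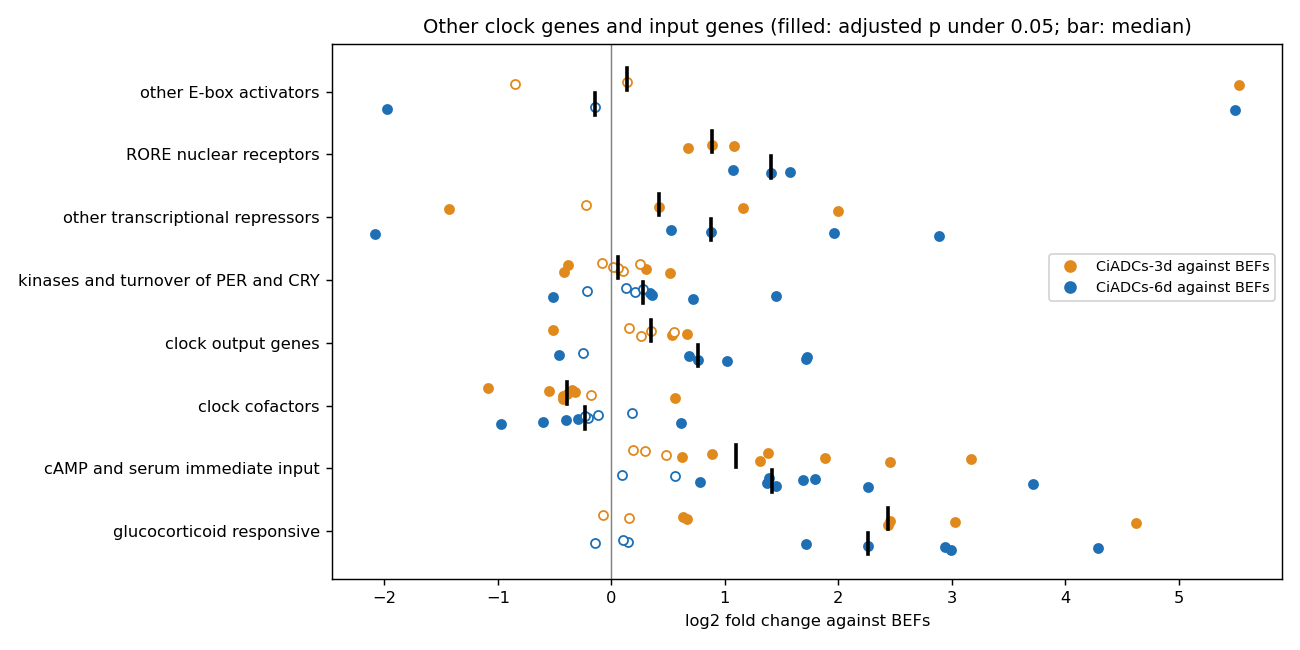
Log2 fold change against BEFs (x axis) of each tested gene of the 6 lists of other clock genes and the 2 input lists (rows), for CiADCs-3d and CiADCs-6d. Filled points passed an adjusted p under 0.05, black bars are list medians, and ZBTB16, with at most 1 count in a BEFs sample, is left out as a point. The nuclear receptors all lie above 0, and ARNTL2 stands at 5.53 and 5.50.

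Many but not all genes of the signals that can reset a fibroblast clock were higher as well. Of 10 genes of the cAMP and serum response, 7 rose by day 3 and 8 by day 6, and none fell, beside 30.9% and 35.6% of all genes tested higher. NR4A1 and CREB1 passed on neither day and CREM only by day 6. The list had median log2 fold changes of 1.10 and 1.42. DUSP1, a phosphatase of the MAP kinases, had 44.1, 41.3 and 66.5 FPKM in BEFs, 265, 303 and 274 FPKM in CiADCs-3d and 230, 250 and 267 FPKM in CiADCs-6d (2.45 and 2.26, adjusted p = 1.48e-07 and 2.22e-07). FOSB had 2.90, 3.24 and 9.77 FPKM in BEFs, 62.7, 40.8 and 42.2 FPKM in CiADCs-3d and 80.6, 72.6 and 62.4 FPKM in CiADCs-6d (3.16 and 3.72, adjusted p = 1.92e-05 and 4.36e-06). FOS averaged 39.4 FPKM in BEFs, 148 FPKM in CiADCs-3d and 104 FPKM in CiADCs-6d and JUNB averaged 67.0, 169 and 187 FPKM, so these AP-1 genes were above BEFs on both days. BEFs replicate 3 had the highest DUSP1, FOSB and FOS of its group but not the highest JUNB, and of the 10 clock genes it was highest in PER1, PER3, CRY2 and CIART, level with another sample in HLF, lowest in DBP and between the others in CLOCK, PER2, CRY1 and TEF.

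Of 9 glucocorticoid-responsive genes, which include DUSP1 and TSC22D3, 7 rose by day 3 and 6 by day 6, and none fell, beside the same shares of all genes, with median log2 fold changes of 2.44 and 2.26. NR3C1, the gene of the glucocorticoid receptor itself, named after its values were seen, was called higher by day 3 alone (0.64, adjusted p = 0.00932). By day 6 it did not pass (0.14, adjusted p = 0.499). Its CiADCs-3d samples had 20.5, 10.9 and 12.9 FPKM, beside 9.36 to 10.03 FPKM in BEFs. KLF9, a repressor induced by the glucocorticoid receptor, had 15.9, 14.7 and 13.7 FPKM in BEFs, 83.5, 76.4 and 83.8 FPKM in CiADCs-3d and 107, 120 and 135 FPKM in CiADCs-6d (2.44 and 2.99, adjusted p = 5.59e-09 and 1.04e-09). PDK4, which restrains glucose oxidation, averaged 0.317 FPKM in BEFs, 7.87 FPKM in CiADCs-3d and 6.33 FPKM in CiADCs-6d (4.62 and 4.28, adjusted p = 7.11e-10 and 1.08e-09), and the kinase gene SGK1 averaged 23.6, 189 and 182 FPKM. FKBP5, the receptor cochaperone often used as a glucocorticoid readout and picked out here after its values were seen, did not pass on either day (0.15 and -0.15, adjusted p = 0.332 and 0.334), nor did ERRFI1. ZBTB16 was listed with 1, 0 and 0 counts in BEFs and averaged 1.17 FPKM in CiADCs-3d and 1.45 FPKM in CiADCs-6d. The list therefore moved unevenly, and the part of these signals in the levels of the clock genes was not tested.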

How the data were processed

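The table deposited by the authors gives, per gene and sample, expected counts, the estimated and unnormalized number of reads of a gene. Beside them stand FPKM values, which the authors had scaled to gene length and library size before deposit. Per the submitters' processing notes, RSEM, StringTie 1.3.1, HISAT2 2.2.4 and fastp 0.18.0 were run, in roles not given, the study's methods name TopHat and HTSeq, and the genome build and the strand setting are not given in the sources used here. The GO and KEGG columns annotate genes, and only the KEGG circadian rhythm entry was used.

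Expected counts were rounded and genes kept by filterByExpr (minimum count 10, minimum total 15), which left 14020 and removed 7492. Counts were scaled by TMM and tested in edgeR 4.0.16 (R 4.3.3) with a quasi-likelihood fit of all 9 samples, 1 coefficient per group and no replicate block. The groups shared their estimate of the spread, although the chi-square per degree of freedom was 2.46 to 9.3 among BEFs and 13.51 to 50.62 among CiADCs of a day. With only the 2 CiADCs groups in the fit, 1358 genes were higher and 1185 lower between the days, of 13766. With all 9 samples these were 2019 and 1904 of 14020. P-values were adjusted over all genes tested (Benjamini-Hochberg), and a gene was called at an adjusted p under 0.05. Each SE was the absolute log2 fold change over the root of F. The script was tested on simulated data. FPKM values were described and tested only as an alternative. Gene models were looked up in RefSeq on ARS-UCD2.0, whose positions were used only to find genes that overlap the 10 clock genes.

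The 10 genes and the other lists were chosen with earlier results of these data known. All 10 genes are named, and up to 4 of each other list, those with the smallest p in CiADCs-6d against BEFs, with the 3 genes most like CLOCK, PER1, CRY1 and DBP over samples among those with a mean of at least 10 CPM. Genes of these lists that the rule names but the text does not are not reported here. Replicate numbers were not taken to pair the samples. Alternatives were DESeq2 1.42.0, other scalings and filters, limma 3.58.1 on log2(FPKM + 1) or log2(FPKM + 0.1), a replicate block, only the 2 groups compared, a 2-fold minimum and leaving out samples. Figures used matplotlib 3.10.9 (Python 3.11.15).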

Additional observations from a re-analysis of the deposited data

Results flagged for a closer look

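Of the 10 clock genes, 4 differed between the CiADCs days in edgeR's test of that difference, so that the distance from BEFs was not the same on day 6 as on day 3. PER1 was farther above BEFs on day 6 (log2 difference 0.50, adjusted p = 0.0225) and PER2 was closer to BEFs from below (0.44, adjusted p = 0.0271). CRY1 departed from BEFs on day 6 (0.93, adjusted p = 0.00759), and TEF lay closer to BEFs on day 6 (-0.31, adjusted p = 0.0366). Only the CRY1 difference among these 4 kept its call under every alternative test, scaling, filter and set of samples tried.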

How the results depend on the processing

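The 30 tests of the clock genes were repeated under 21 alternatives, which gave 630 values. Of these, 585 kept their direction and their side of the threshold, 26 lost and 2 gained a call, and 17, none of them called, changed sign. Of 19 calls, 14 held throughout, and the 5 others (PER2 and CIART in CiADCs-6d against BEFs, and PER1, PER2 and TEF in CiADCs-6d against CiADCs-3d) are given with their values above. With a 2-fold minimum the clock genes lower were 0 by day 3 and 0 by day 6, and 0 were higher and 0 lower between the days. Of the 36 other clock genes tested, 4 were higher and 2 lower by day 3, 10 and 2 by day 6, and 4 and 0 between the days. The shares of all genes tested by this rule were 18.2% higher and 9.94% lower by day 3. They were 21.9% and 13.4% by day 6, and 4.09% and 3.22% between the days. With each of the 3 limma fits on log2 FPKM, 1 clock gene was lower by day 6 and 0 were lower between the days, and the count lower between the days was also 0 with total-count scaling and with only the 2 groups compared. Without the CiADCs samples numbered 1 on both days, 5 clock genes were higher between the days, as were 16 of the other clock genes, with 6 lower. Of 14168 genes tested in that fit, 3224 were higher and 3690 lower. Leaving out single samples gave 1 to 2 clock genes lower by day 6 (1 on leaving out any BEFs sample or CiADCs-6d replicate 3), 1 to 3 higher between the days (1 on leaving out CiADCs-6d replicate 3 or either of CiADCs-3d replicates 2 and 3) and 0 to 1 lower (0 without BEFs replicate 3 or replicate 2 or 3 of either CiADCs day). Of the other clock genes, 4 were lower between the days without CiADCs-3d replicate 1 and 5 without CiADCs-6d replicate 1. Among all genes tested, 2515 of 14285 and 2938 of 14224 were lower in these fits.

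Values near 0 changed sign without a call. CLOCK in CiADCs-6d against BEFs was -4.7e-05 with upper-quartile scaling. PER3 in CiADCs-6d against CiADCs-3d was -0.017 with DESeq2, -0.054 with upper-quartile scaling, -0.016 with RLE scaling, -0.012 with no filter, -0.003 with only the 2 groups compared and -0.249 without the CiADCs samples numbered 1. Leaving out single samples gave -0.174 to 0.083 for PER3 and -0.074 to 0.191 for HLF between the days, -0.248 to 0.027 for CRY1 and -0.377 to 0.017 for CIART by day 3, and -0.095 to 0.135 for CLOCK by day 6. The cause was not tested. The replicate block left the counts of clock genes higher and lower at 6 and 1, 6 and 2, and 3 and 1 in the 3 comparisons. Same-numbered samples correlated between -0.372 and 0.145 in their deviations from the group means, so the numbers were not taken to pair them. With DESeq2 and with no filter the median of all genes in CiADCs-6d against BEFs was 0.129 and 0.108, over 17748 genes against 14020. Adding 1 to FPKM shrank the folds of low genes by construction, HLF by day 3 to 1.01. Counts under 110 per sample limit the precision for CIART, and for PER3, DBP and HLF in BEFs.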
